A study of Mus musculus with 6 samples.

Results

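The NF-kappa B family was followed through 10 of 54532 deposited genes, chosen by gene symbol with earlier results of these data known. They were the 5 subunits of the transcription factor (Nfkb1, Nfkb2, Rel, Rela and Relb), the cytoplasmic inhibitors Nfkbia and Nfkbie, and the feedback genes Tnfaip3, Birc3 and Traf1. All 10 were measured, and all 10 passed the filter on low values, which asked for an FPKM of 1 or more in 3 or more libraries. FPKM is the number of fragments scaled to gene length and to the library size that the authors used. Levels of different genes can be set side by side as far as the gene lengths used are right.

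RNA came from bone marrow (BM) cells of C57BL/6 mice at day 100 after transplantation. All mice had received lineage-negative donor marrow cells that had been given JAK3 M511I, a mutant Janus kinase that signals on its own, by retrovirus, and such mice develop T-cell acute lymphoblastic leukemia (T-ALL). The groups were Phf6 WT (3 libraries, WT 1 to WT 3) and Phf6 KO (3 libraries, KO 1 to KO 3). In the study's description the WT donors were Phf6 fl/y and the KO donors Vav1-Cre;Phf6 fl/y, in which the Vav1 promoter drives Cre in blood cells. The genotype labels read Phf6, Phf7 and Phf8 in turn within each group, and were taken as Phf6 from the design text of the series. The study calls the profiled material T-ALL cells and the labels call it BM cells, and neither the labels nor the methods state whether leukemic cells were sorted for these libraries, or that the libraries came from separate mice, so the p-values measure the spread between these libraries.

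NF-kappa B dimers are held in the cytoplasm by IkB proteins until the IKK kinases mark the inhibitor for destruction, after which the dimers enter the nucleus and bind kappa B sites. The canonical branch works mainly through Rela, Rel and p50, the product of Nfkb1. The alternative branch works through Relb and p52, which is cut from the Nfkb2 product. Several targets, among them Nfkbia and Tnfaip3, shut the pathway down again, and in developing T cells signals of the pre-T cell receptor and of Notch are known to engage it.

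The RNA of the targeted gene did not separate the groups. Phf6 stood at 7.47, 3.67 and 8.02 FPKM in WT replicates 1, 2 and 3 against 6.73, 5.50 and 5.11 in the KO replicates, and its log2 fold change was -0.073 (limma, adjusted p = 0.893). The conditional deletion removes part of the gene, which a value per gene cannot show, so every direction below follows the labels. In separate assays the study also measured Phf6 mRNA and protein in leukemia cells of both genotypes. WT 2 stood apart from the other libraries. Genes shorter than 1000 bases took 17.1% of its reads against 3.11% to 5.01% elsewhere, its FPKM values summed to 897352 against 244936 to 329893 elsewhere. The libraries held between 13015823 and 18235095 reads in genes.

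Markers of other blood cells moved with the labels. The 12 neutrophil genes listed were all lower past the threshold in the KO libraries, and their summed FPKM lay between 6855 and 95430 in the WT and between 93.7 and 290.3 in the KO libraries. The summed level of the 12 monocyte and macrophage genes was 611 to 5111 in WT and 15.2 to 24.6 in KO, and that of the 5 NK cell genes was 47.6 to 95.6 and 0.370 to 1.40, with Klra8 at 0 in all KO libraries. The B cell list summed to 14.9, 1020 and 21.2 in WT replicates 1, 2 and 3 and to between 1.99 and 2.68 in KO. The T cell list of 12 genes summed to 1256 to 2299 in WT and 1148 to 1430 in KO, but its members differed, with Cd4 higher past the threshold (a mean of 2.16 in WT and 81.4 in KO), Trac (238 and 21.5) and Cd5 (30.5 and 9.18) lower, and 9 not past it. The 6 immature thymocyte genes, all higher in KO past the threshold, summed to 8.06 to 37.1 in WT, where Ptcra was at 0, and to 714 to 855 in KO. Erythroid genes reached a sum of 68040 in WT 2 against 10.7 to 525 in the other libraries. The 7 dendritic cell genes summed to 17.0 to 27.4 in WT and 9.88 to 11.5 in KO, where nearly all of the sum was Ccr9, which immature T cells also express and which was higher in KO. The other 6 summed to 16.8 to 27.1 in WT and 0.356 to 0.563 in KO, with Itgax lower past the threshold and Siglech at 0 in all KO libraries. In RNA pooled from many cells, fewer cells of a type and less RNA per cell cannot be told apart, and the part of cell makeup in the results given here was not tested.

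The starts of the family's own genes are shown first, because kappa B sites close to a start are how NF-kappa B acts on its inhibitors. RefSeq promoters (GRCm38.p6) were found for 8 of the 10 genes, all but Nfkb1 and Relb. The 250 bases before the start were searched on both strands for the kappa B consensus. It was present in 5 of the 8 (Nfkb2, Rel, Nfkbia, Nfkbie and Tnfaip3), and in 7.03% of all 27025 promoters searched. The 130 bases before the start are printed for Rel (chr11:23770970-23771099, minus strand), Nfkbia (chr12:55492648-55492777, minus strand), Nfkbie (chr17:45555570-45555699, plus strand) and Tnfaip3 (chr10:19015411-19015540, minus strand). For Nfkb2 only a site of 30 bases is printed (chr19:46304689-46304718, plus strand), because its promoter overlaps annotated exons. Each reads 5′ to 3′ on the strand of the gene, with matches in capitals.
Nfkb2: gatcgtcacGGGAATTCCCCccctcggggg
Rel: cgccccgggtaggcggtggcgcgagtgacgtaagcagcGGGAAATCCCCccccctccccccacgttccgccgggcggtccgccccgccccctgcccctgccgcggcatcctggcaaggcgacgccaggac
Nfkbia: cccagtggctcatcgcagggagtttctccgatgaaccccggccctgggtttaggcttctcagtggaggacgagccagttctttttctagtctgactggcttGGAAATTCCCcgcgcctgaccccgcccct
Nfkbie: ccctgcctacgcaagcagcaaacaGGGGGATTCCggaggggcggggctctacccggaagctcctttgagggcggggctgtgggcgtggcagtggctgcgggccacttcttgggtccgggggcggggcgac
Tnfaip3: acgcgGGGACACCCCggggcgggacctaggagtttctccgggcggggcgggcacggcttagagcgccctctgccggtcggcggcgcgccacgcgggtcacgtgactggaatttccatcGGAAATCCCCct
Counted from the start, with -1 as the base before it, matches began at -29 in Nfkbia, -92 in Rel, -106 in Nfkbie, -125 and -12 in Tnfaip3, and -39 and -11 in Nfkb2. The RefSeq start of Tnfaip3 lies inside the gene as deposited. In Rel and in the first place of Nfkb2 matches overlapped each other. A match is a stretch of letters and not a measured binding site.

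Across the family, 7 of the 10 genes were lower in the KO libraries past the threshold of 0.05 and 0 were higher, where 13.3% of all 13393 genes tested were lower and 13.1% higher (limma, Benjamini-Hochberg adjustment over all genes). At an unadjusted p under 0.05 the number higher was also 0. The 7 were Rel, Rela, Relb, Nfkbia, Tnfaip3, Birc3 and Traf1, and in each of them every WT library lay above every KO library, a pattern found in 22.9% of the genes tested (49.1% counting both directions). The median log2 fold change was -1.61 over the 10 genes and 0.086 over all genes. Nfkb1, Nfkb2 and Nfkbie did not pass, and their groups overlapped. Relb and Traf1 met the filter on low values through the WT libraries alone. Of the 5 genes with a kappa B match before the start, 3 were lower (Rel, Nfkbia and Tnfaip3), as were all 3 genes searched without one (Rela, Birc3 and Traf1). Without WT 2 the number lower was also 7 and Nfkbie passed as higher, while of all 13393 genes 3383 were lower and 3584 higher. The number lower was 3 without KO 2 and 3 without KO 3, where 996 and 1059 of all genes were lower.

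**Figure D1:**
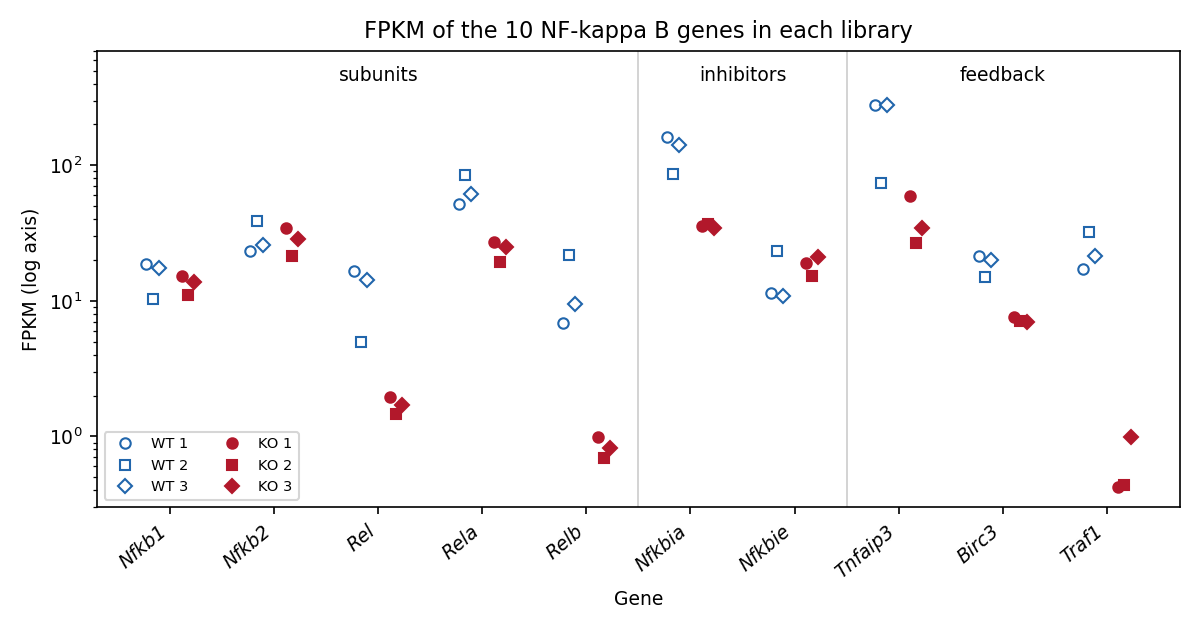
FPKM on a log axis of the 10 genes in each of the 6 libraries, with WT as open and KO as filled symbols and 1 symbol shape per replicate number. The KO libraries lie below all WT libraries for 7 genes, and the groups overlap for Nfkb1, Nfkb2 and Nfkbie.

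Rela encodes p65, the main activating subunit of the canonical branch. Rela (ENSMUSG00000024927, chromosome 19, 5637483 to 5648130, plus strand) stood at 52.2, 85.2 and 61.5 FPKM in WT replicates 1, 2 and 3, against 27.0, 19.2 and 25.0 in the KO replicates. WT 2 was the highest library and KO 2 the lowest, and the groups did not overlap. The mean fell from 66.3 ± 17.0 to 23.7 ± 4.01 (SD, n = 3 each), and on the log2 scale KO minus WT was -1.43 (SE 0.29, limma, adjusted p = 0.0128). Rela did not pass without KO 2, at -1.29 (limma, adjusted p = 0.0715), or without KO 3, at -1.47 (limma, adjusted p = 0.0569), and over 18 alternative settings its adjusted p lay between 0.000298 and 0.244.

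Rel encodes c-Rel, a subunit used above all by lymphocytes after antigen receptor signals. Rel (ENSMUSG00000020275, chromosome 11, 23736847 to 23770970, minus strand) stood at 16.5, 4.99 and 14.3 FPKM in WT replicates 1, 2 and 3, against 1.94, 1.45 and 1.70 in the KO replicates. WT 2 lay far below the other WT libraries and still above the highest KO library. The mean was 11.9 ± 6.12 in WT and 1.70 ± 0.243 in KO (SD, n = 3 each), with 171 to 270 reads in the KO libraries. The log2 fold change was -2.12 (SE 0.44, limma, adjusted p = 0.0145), and -2.61 without WT 2. Rel did not pass without KO 1, KO 2 or KO 3 (-2.19, -2.06 and -2.12), and the adjusted p ranged from 4.44e-06 to 0.168 over the alternatives.

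Relb encodes the subunit that partners with p52 in the alternative branch. Relb (ENSMUSG00000002983, chromosome 7, 19606217 to 19629438, minus strand) stood at 6.90, 21.8 and 9.42 FPKM in WT replicates 1, 2 and 3, against 0.995, 0.687 and 0.815 in the KO replicates. Here WT 2 was the highest library, the reverse of its place for Rel, and no KO library reached an FPKM of 1. The KO values rest on 72, 42 and 51 reads. The mean was 15.3-fold lower in KO, at 0.832 ± 0.155 compared with 12.7 ± 7.95 (SD, n = 3 each), and the log2 fold change was -2.75 (SE 0.42, limma, adjusted p = 0.00461). Without WT 2 the mean was 9.80-fold lower and the log2 fold change -2.31. Relb passed in all 18 alternatives, with the adjusted p between 1.69e-05 and 0.0293.

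The subunits that are made as long precursors stood closer between the groups. Nfkb1 (ENSMUSG00000028163, chromosome 3, 135584655 to 135691547, minus strand), the source of p105 and p50, stood at 18.5, 10.3 and 17.5 FPKM in WT replicates 1, 2 and 3, against 15.3, 11.02 and 13.7 in the KO replicates. WT 2 was the lowest of the 6 libraries, and the KO values lay between it and the other WT libraries. The log2 fold change was -0.17 (SE 0.30, limma, adjusted p = 0.720), and it was 0.63 after rescaling to TPM, which gives every library the same summed level, and -0.42 without WT 2. It was -0.49 with array weights, which count a library less the more it departs from its group, and there it passed (limma, adjusted p = 0.0178, the lowest over the alternatives, whose highest was 0.962). Nfkb2 (ENSMUSG00000025225, chromosome 19, 46304737 to 46312090, plus strand), the source of p100 and p52, had an FPKM of 23.4, 38.8 and 25.8 in the WT libraries in order and 34.5, 21.5 and 28.4 in the KO libraries. Its groups lay across each other, with a log2 fold change of -0.050 (SE 0.30, limma, adjusted p = 0.924). The value was 0.16 without WT 2 and 0.78 after rescaling to TPM, and did not pass in any of the 18 alternatives. Exons of Nfkb2 overlap those of Psd and of AC114539.1 on the opposite strand (299 and 531 bases), and reads of these genes cannot be told apart unless the counting used strand, which is not stated.

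The makeup of the subunit transcripts was set out as shares. A share within 1 library does not depend on the size factor of that library. Of the summed FPKM of the 5 subunits, Rela took 44.4%, 52.9% and 47.8% in WT replicates 1, 2 and 3, against 33.8%, 35.7% and 35.9% in the KO replicates. Nfkb2 took 19.9%, 24.1% and 20.1% in WT and 43.3%, 39.8% and 40.8% in KO. By these values the most abundant subunit transcript was Rela in every WT library and Nfkb2 in every KO library. For Nfkb2 and Rela the deposited lengths (3289 and 2716 bases) are below the exon bases in the GENCODE M21 annotation (4584 and 3072). The order of these 2 genes in the KO libraries therefore depends on which lengths are used. Nfkb1 held 11.9% ± 4.91 in WT and 19.8% ± 0.636 in KO (SD, n = 3 each), a difference of 7.83 percentage points that was 4.32 with the length trend removed and 5.06 without WT 2. Relb held 8.90% ± 4.06 in WT and 1.23% ± 0.0531 in KO, and Rel held 9.42% ± 5.67 and 2.53% ± 0.152. The groups did not overlap for any of the 5 shares, which sum to 100% and are not independent of each other. Among single genes tested, 49.1% had groups that did not overlap, and this was not computed for shares within other sets of genes. For Rel, the lowest WT share was 3.10% in WT 2 and the highest KO share 2.70%. Without WT 2 the difference was -10.1 percentage points for Rel, against -6.90 with all libraries, and -5.37 for Relb, against -7.67.

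**Figure D2:**
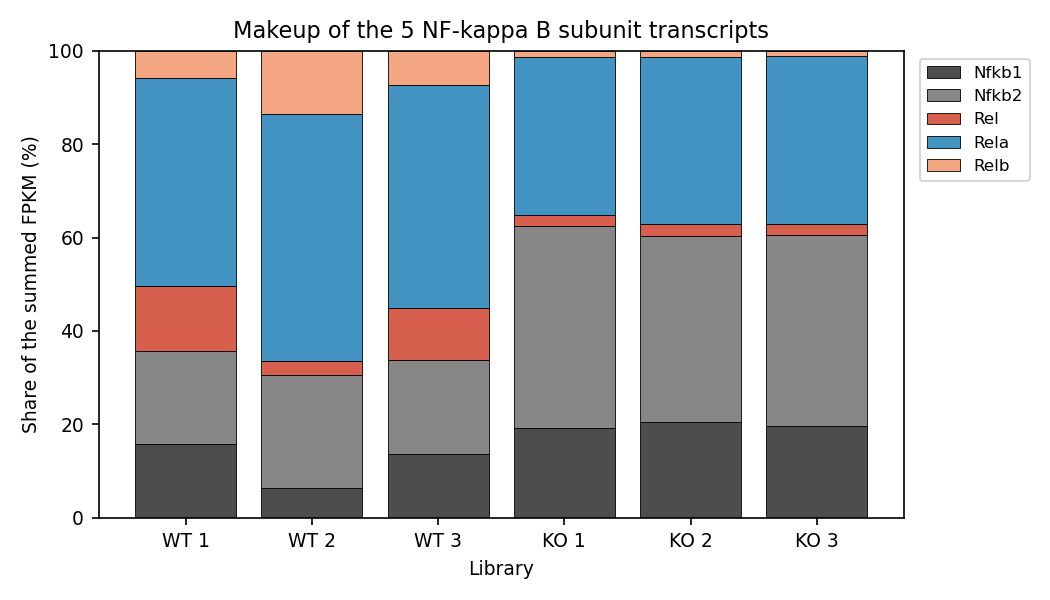
Stacked bars of the share of each subunit gene in the summed FPKM of the 5 subunits, in percent, 1 bar per library. Nfkb2 takes 39.8% to 43.3% in the KO libraries and 19.9% to 24.1% in the WT libraries, while Relb takes 1.17% to 1.27% and 5.87% to 13.5%.

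Of the inhibitors, Nfkbia was lower and Nfkbie did not pass. Nfkbia encodes IkB alpha, which is made anew when NF-kappa B is active and pulls it back out of the nucleus. Nfkbia (ENSMUSG00000021025, chromosome 12, 55489410 to 55492647, minus strand) stood at 162, 86.7 and 142 FPKM in WT replicates 1, 2 and 3, against 35.7, 37.1 and 34.2 in the KO replicates. The KO libraries were close to each other and all below WT 2, the lowest WT library. The mean was 130.2 ± 39.1 in WT and 35.7 ± 1.47 in KO (SD, n = 3 each), and on the log2 scale KO minus WT was -1.79 (SE 0.31, limma, adjusted p = 0.00760). It passed without any 1 library. It did not pass after rescaling to TPM (-0.98), quantile normalization (-1.39) or removal of the length trend (-1.46), with the adjusted p between 5.17e-06 and 0.277 over the alternatives.

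Nfkbie encodes IkB epsilon, an inhibitor that returns more slowly than IkB alpha. Nfkbie (ENSMUSG00000023947, chromosome 17, 45555703 to 45563169, plus strand) stood at 11.5, 23.2 and 10.9 FPKM in WT replicates 1, 2 and 3, against 19.1, 15.3 and 21.2 in the KO replicates. WT 2 was above all KO libraries, and the other WT libraries were below all of them. The log2 fold change was 0.34 (SE 0.34, limma, adjusted p = 0.519), and it was 0.67 and passed without WT 2 (limma, adjusted p = 0.0185). It also passed after rescaling to TPM (1.18) and with array weights (0.59), and the adjusted p spanned 0.00988 to 0.786 over the alternatives.

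The feedback genes were all lower. Tnfaip3 encodes A20, a ubiquitin-editing enzyme that takes apart signalling complexes upstream of IKK. Tnfaip3 (ENSMUSG00000019850, chromosome 10, 19000910 to 19015657, minus strand) stood at 280.0, 74.01 and 278 FPKM in WT replicates 1, 2 and 3, against 58.9, 26.8 and 34.2 in the KO replicates. It was the most abundant of the 10 genes by mean in both groups, and WT 2 lay much nearer to KO 1 than to the other WT libraries. The mean was 211 ± 118 in WT and 39.96 ± 16.9 in KO (SD, n = 3 each), and on the log2 scale KO minus WT was -2.22 (SE 0.61, limma, adjusted p = 0.0383). This call depended on the libraries kept and on the processing. Tnfaip3 passed without WT 2 (-2.85, limma, adjusted p = 0.00121) but not without WT 1 (-1.90), WT 3 (-1.90), KO 1 (-2.53), KO 2 (-1.97) or KO 3 (-2.14). With all libraries it did not pass without the filter (-2.22), after quantile normalization (-1.82) or after rescaling to TPM (-1.40). It passed in 10 of 18 alternatives, with the adjusted p between 4.85e-05 and 0.288.

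Birc3 encodes cIAP2, a ubiquitin ligase that acts on RIP kinases at the tumor necrosis factor receptor. Birc3 (ENSMUSG00000032000, chromosome 9, 7848699 to 7873186, minus strand) stood at 21.4, 15.0 and 20.1 FPKM in WT replicates 1, 2 and 3, against 7.56, 7.04 and 6.94 in the KO replicates. The KO libraries differed little from each other, and the lowest WT library was still well above them. The log2 fold change was -1.26 (SE 0.23, limma, adjusted p = 0.00967). Birc3 did not pass without KO 2 (-1.25, limma, adjusted p = 0.0574), without KO 3 (-1.24, limma, adjusted p = 0.0554) or after rescaling to TPM (-0.53), and the adjusted p spanned 2.08e-05 to 0.498 over the alternatives. Its neighbour and paralog Birc2, which encodes cIAP1, did not pass (0.26, limma, adjusted p = 0.626).

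Traf1 encodes an adaptor that joins TRAF2 and the cIAP proteins at receptors of the TNF family. Traf1 (ENSMUSG00000026875, chromosome 2, 34941750 to 34961772, minus strand) stood at 17.3, 32.0 and 21.3 FPKM in WT replicates 1, 2 and 3, against 0.426, 0.439 and 0.986 in the KO replicates. KO 3 was the highest KO library and lay far below every WT library. The mean was 38.1-fold lower in KO, at 0.617 ± 0.320 against 23.5 ± 7.60 (SD, n = 3 each), and the log2 fold change of -3.90 (SE 0.31) was the largest of the 10 in size (limma, adjusted p = 0.000504). Traf1 passed in all 18 alternatives, with the adjusted p between 2.15e-06 and 0.00576.

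**Figure D3:**
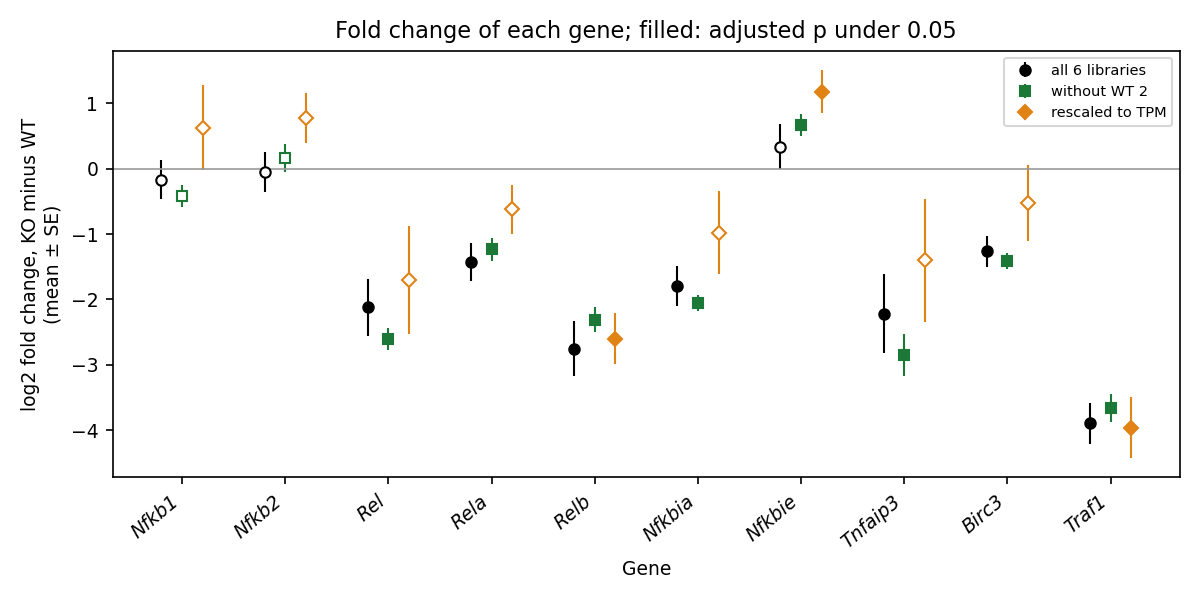
The log2 fold change of each gene, KO minus WT, with its standard error, from all 6 libraries, without WT 2, and after rescaling to TPM, with filled symbols for an adjusted p under 0.05. Traf1 and Relb are filled in all 3 series, and rescaling moves 9 of the 10 genes upward (Rela from -1.43 to -0.62) and Traf1 slightly down.

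The number of family genes lower past the threshold was 7 with median-of-ratios scaling, 5 after quantile normalization and 2 after rescaling to TPM. After rescaling to TPM, Relb and Traf1 alone were lower past the threshold and Nfkbie was higher, while the median of log2 fold changes over all genes moved from 0.086 to 0.86. Relative to that median, the values under the authors' scaling and under TPM were close for Rela (-1.51 and -1.48), Nfkbia (-1.88 and -1.83), Tnfaip3 (-2.30 and -2.26) and Birc3 (-1.35 and -1.39). The same difference was 0.25 and 0.32 for Nfkbie, and -0.26 and -0.23 for Nfkb1. For Rel, Relb and Traf1 it was -2.21, -2.84 and -3.98 under the authors' scaling and -2.56, -3.46 and -4.82 under TPM. For Nfkb2 it lay between -0.30 and 0.12 over all settings.

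By mean FPKM the order in WT was Tnfaip3, Nfkbia, Rela, Nfkb2, Traf1, Birc3, Nfkb1, Nfkbie, Relb and Rel. In WT the ranges of neighbours overlapped except between Nfkbia and Rela and between Rela and Nfkb2. In KO the order was Tnfaip3, Nfkbia, Nfkb2, Rela, Nfkbie, Nfkb1, Birc3, Rel, Relb and Traf1. In KO the ranges were apart between Nfkbie and Nfkb1, Nfkb1 and Birc3, Birc3 and Rel, and Rel and Relb, and overlapped between the other neighbours. Traf1 thus went from the fifth place to the last. The order of Nfkb2 and Rela in KO depends on the gene lengths used, as given above.

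Ratios of 2 genes within a library remove the size factor, and 9 were compared by an exact permutation test (two-sided), which with 3 against 3 libraries cannot give a p under 0.1. The groups did not overlap in 5 of them, each with an exact permutation p = 0.1 (0.18 adjusted over the 9). Of single genes tested, 49.1% had groups that did not overlap, and this share was not computed for ratios of other genes. The split of the 9 ratios depended on WT 2 and on the length trend. Without WT 2 the groups were apart in all 9 (exact permutation p = 0.2, the smallest that 2 against 3 allow), and with the length trend removed in 8 of 9 (exact permutation p = 0.1). The ratio Relb/Rela was 0.132, 0.256 and 0.153 in WT replicates 1, 2 and 3, against 0.0369, 0.0357 and 0.0327 in the KO replicates, so Relb was lower than Rela by a wider margin in every KO library. Nfkb1/Rela was 0.355, 0.121 and 0.285 in WT and 0.568, 0.572 and 0.547 in KO. Nfkbie/Nfkbia, the balance of the inhibitors, was 0.0708, 0.267 and 0.0768 in WT and 0.534, 0.412 and 0.620 in KO, a difference of 2.19 on the log2 scale with a standard error of 0.64. All KO libraries were above WT 2, the highest WT library.

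Birc3 and Traf1 were also set against a related gene each. Birc3/Birc2 was 0.972, 1.37 and 0.845 in WT and 0.298, 0.363 and 0.336 in KO. Traf1/Traf2 was 2.12, 1.48 and 2.33 in WT and 0.0518, 0.0520 and 0.148 in KO, with Traf2 itself at a log2 fold change of -0.55 that did not pass (limma, adjusted p = 0.352). The groups overlapped for Rel/Rela (exact permutation p = 0.4), Nfkb2/Nfkb1 (exact permutation p = 1), Nfkbia/Rela (exact permutation p = 0.6) and Tnfaip3/Nfkbia (exact permutation p = 0.4) with all libraries. On the log2 scale, KO minus WT went from -1.18 to -1.92 without WT 2 for Rel/Rela, from 0.13 to 0.62 for Nfkb2/Nfkb1, from -0.35 to -0.82 for Nfkbia/Rela and from -0.43 to -0.80 for Tnfaip3/Nfkbia. With the length trend removed the groups overlapped for Nfkbia/Rela (-0.29) and were apart for Rel/Rela (-1.53), Nfkb2/Nfkb1 (0.58) and Tnfaip3/Nfkbia (-0.80). For Rel/Rela the WT libraries themselves ran from 0.0586 in WT 2 to 0.316 in WT 1.

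**Figure D4:**
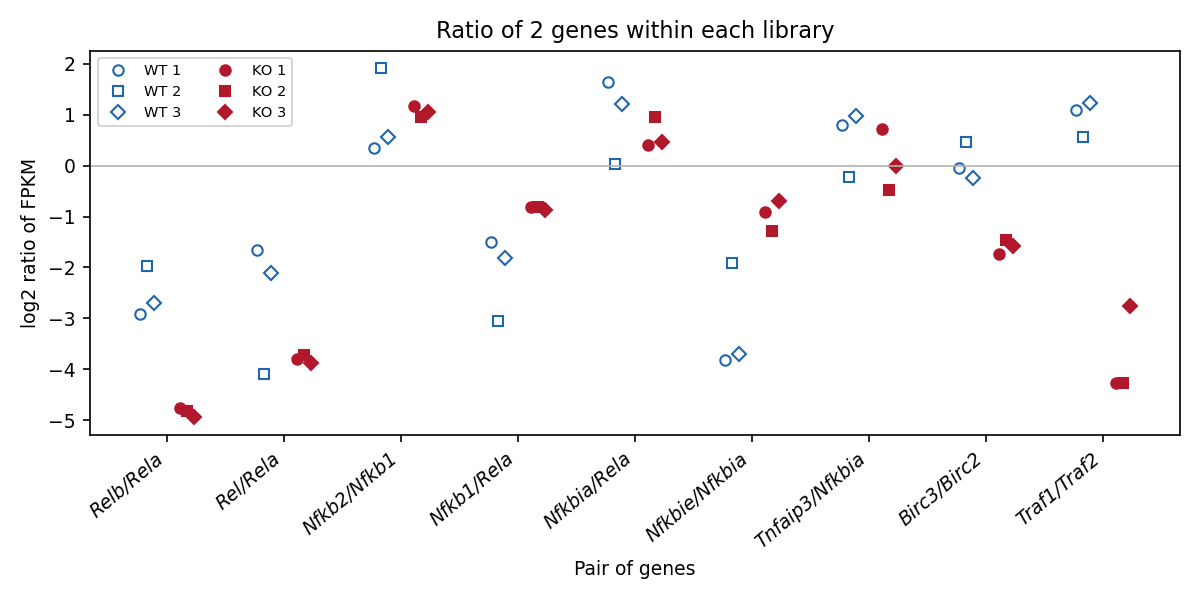
The log2 ratio of FPKM of 9 pairs of genes in each library, with WT as open and KO as filled symbols. The groups are apart for Relb/Rela, Nfkb1/Rela, Nfkbie/Nfkbia, Birc3/Birc2 and Traf1/Traf2, and WT 2 departs from WT 1 and WT 3 for Rel/Rela and Nfkbia/Rela.

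The neutrophil markers varied widely within the WT group. Their summed FPKM was 33830 in WT 1, 95430 in WT 2 and 6855 in WT 3. Between WT 1 and WT 3 Nfkbia went from 162 to 142, Tnfaip3 from 280.0 to 278, Rel from 16.5 to 14.3 and Birc3 from 21.4 to 20.1. Traf1, Rela and Relb were higher in WT 3 than in WT 1. WT 2 had the highest sums of neutrophil, monocyte and macrophage, B cell, dendritic cell, erythroid and T cell genes. Its NK cell sum was the lowest of the WT libraries, at 47.6 against 94.0 in WT 1 and 95.6 in WT 3. The NK cell sum was 0.370 to 1.40 in KO. In WT 2 Rela, Relb, Nfkb2, Nfkbie and Traf1 were at their WT maximum and Rel, Nfkb1, Nfkbia, Tnfaip3 and Birc3 at their WT minimum. The part of cell makeup in these patterns was not tested.

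The rest of the pathway was examined with a list of 79 genes in 8 roles, of which 66 could be tested. Of these, 26 were lower and 2 higher in KO past the threshold (39.4% and 3.03%, against 13.3% and 13.1% of all genes), and the median log2 fold change was -0.91. The number lower was 40 without WT 2, 14 without KO 2 and 15 after rescaling to TPM. Of all 13393 genes tested, 3383, 996 and 1081 were lower in these settings, against 1785 with all libraries. Genes named first are up to 3 per role with the smallest p-values. Among the genes named below, Ltbr, Tnf, Ebi3 and Ier3 met the filter on low values through the WT libraries alone. Tnfsf11 met it through the KO libraries alone.

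Of the 4 other IkB proteins listed, the 3 nuclear or atypical ones were lower (75%, against 13.3% of all genes). Nfkbib, which encodes the cytoplasmic inhibitor IkB beta, did not pass (-1.29, limma, adjusted p = 0.0740). Nfkbiz, a coactivator of secondary NF-kappa B targets, stood at 81.9, 27.7 and 55.5 FPKM in WT replicates 1, 2 and 3, against 4.14, 5.01 and 3.65 in the KO replicates, and the log2 fold change was -3.29 (limma, adjusted p = 0.00233). Nfkbid, which encodes IkBNS, had -3.22, and Bcl3, which binds p50 and p52 dimers, had -1.80. In all 4 every WT library lay above every KO library, as in 22.9% of the genes tested.

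The kinases of the core stood closer, with 2 of 10 lower (20%) and 1 higher (10%), against 13.3% and 13.1% of all genes. Chuk and Ikbkb, which encode the catalytic IKK subunits, did not pass (0.25 and -0.52, limma, adjusted p = 0.742 and 0.356). Ikbke had a log2 fold change of -1.85 and Map3k14, which encodes the NIK kinase of the alternative branch, had -1.23 (limma, adjusted p = 0.00355 and 0.00930). Tab1, which activates the kinase TAK1, was higher, at 5.80, 15.0 and 6.99 in WT and 22.8, 26.3 and 25.4 in KO, and the log2 fold change was 1.43 (limma, adjusted p = 0.0289). Tab1 passed in 12 of 18 alternatives, and not without the filter or without WT 1, WT 3, KO 1, KO 2 or KO 3.

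Of 13 adaptors and ubiquitin ligases, 2 were lower (15.4%, against 13.3% of all genes), Traf5 (-2.16) and Myd88 (-1.58). Traf3, which restrains NIK, did not pass (-1.54, limma, adjusted p = 0.0533), but was lower past the threshold in 6 of 18 alternatives, among them without WT 2 (-2.05). In the antigen receptor branch, Prkcq, a kinase downstream of the T cell receptor, and Malt1, a paracaspase, were lower (-1.22 and -2.18 on the log2 scale), while Bcl10 had -0.43 and did not pass. Malt1 lost the threshold in 6 of 18 alternatives.

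**Figure D5:**
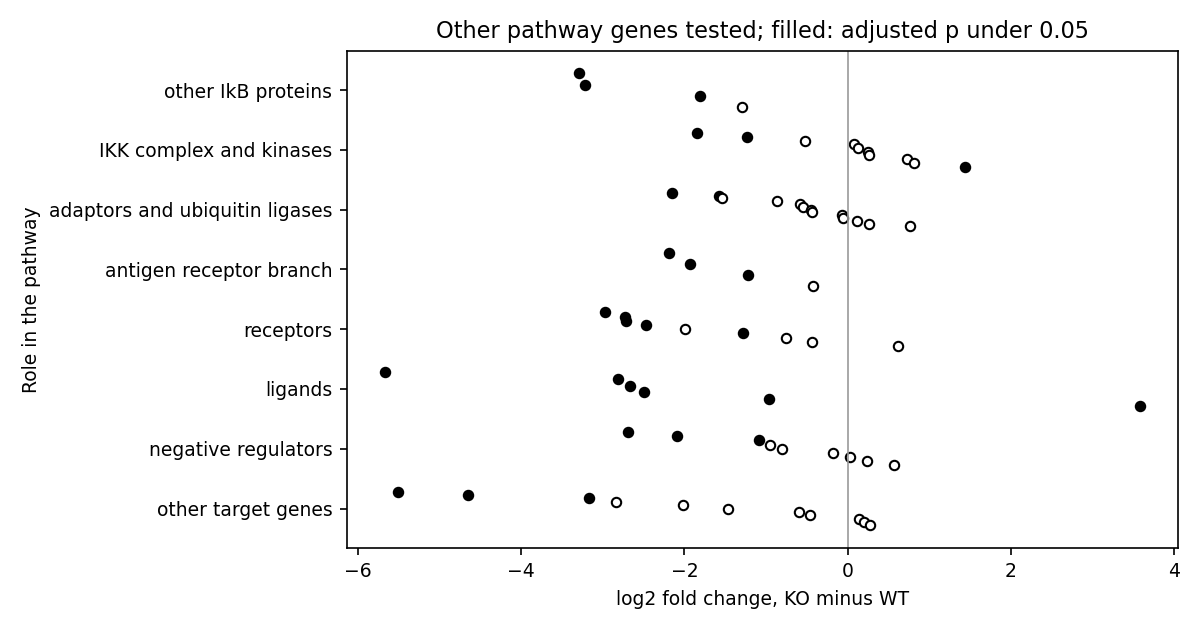
The log2 fold change, KO minus WT, of the 66 other pathway genes tested, by role, with filled points for an adjusted p under 0.05. Most filled points lie left of 0, with Tab1 (1.43) and Tnfsf11 (3.58) on the right.

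Receptors and ligands at the head of the pathway held both lower and higher genes. Of the 9 receptors tested 5 were lower (55.6%, against 13.3% of all genes). Tnfrsf1b, a TNF receptor of lymphocytes, was at -2.47 on the log2 scale and Tnfrsf18, which encodes GITR, at -2.71. Ltbr, a receptor of myeloid and stromal cells for lymphotoxin, was at -2.97. It had 12, 8 and 4 reads in KO replicates 1, 2 and 3, and did not pass without KO 1, KO 2 or KO 3. All 6 ligands tested passed, 5 of them lower (83.3%, against 13.3% of all genes) and 1 higher (16.7%, against 13.1%). Tnf had an FPKM of 13.7, 9.91 and 5.98 in WT and 0.459, 0.620 and 0.834 in KO (log2 fold change -2.67, limma, adjusted p = 0.00212), and Tnfsf14, which encodes LIGHT, had -2.81. The ligand that rose was Tnfsf11, which encodes RANKL, an activator of the alternative branch. Its WT replicates 1, 2 and 3 held 9, 1 and 18 reads and its KO replicates 940, 341 and 449, or a mean FPKM of 0.273 ± 0.241 and 14.9 ± 6.78 (SD, n = 3 each). Its log2 fold change was 3.58 (limma, adjusted p = 0.00108), and it passed in all 18 alternatives.

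Among 9 negative regulators tested, 3 were lower (33.3%, against 13.3% of all genes). Zc3h12a, which encodes the RNase Regnase-1, had an FPKM of 40.5, 49.2 and 64.8 in WT and 7.90, 5.02 and 8.43 in KO, and the log2 fold change was -2.69 (limma, adjusted p = 0.00152). N4bp1 and Tnip2 had -2.09 and -1.09, and Tnip2 lost the threshold in 8 of 18 alternatives. Of 11 other target genes tested, 3 were lower (27.3%, against 13.3% of all genes), Cxcl2 (-5.50), Ebi3 (-3.17) and Ier3 (-4.64), which myeloid cells also express. Cxcl2 stood at 190.3, 61.2 and 23.9 FPKM in WT replicates 1, 2 and 3 and at most 1.44 in KO. The other 8 did not pass. Of these, Cd83 had a log2 fold change of -2.83, Bcl2a1d, whose reads are uncertain because of near-identical copies, -2.02 and Tnfaip2 -1.47 (limma, adjusted p = 0.0973, 0.0538 and 0.123), and Bcl2l1, Irf1, Sod2, Icam1 and Cflar had values between -0.60 and 0.28.

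The genes whose log2(FPKM + 1) followed a member most closely over the 6 libraries are a description only, since all points share the same libraries and the labels. For Nfkb1 they were Heatr6 (Pearson r = 0.994), Cnot3 (0.990) and Gm27271 (0.988), for Nfkbia Trbd1 (0.999), Kcnk6 (0.999) and Daam1 (0.999), and for Tnfaip3 Irf2 (0.999), Myo9b (0.996) and Ighv14-2 (0.996). A correlation of at least 0.95 was reached by 0.553% of the genes for Nfkb1, 4.71% for Nfkbia and 2.08% for Tnfaip3.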

How the data were processed

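RNA was measured in 6 BM libraries, 3 labelled WT and 3 labelled KO, which were the groups compared. The authors deposited 1 table of FPKM per gene with the gene length they used. The submitters' processing notes name HISAT2 2.0.5, featureCounts 1.5.0-p3 and GRCm38 (mm10). Which annotation was counted, and whether by strand, is not given in the sources used here. The study tested counts, and because the deposited unit is FPKM a log scale was used here. Coordinates matched GENCODE M21 for 53462 of 54532 genes, and for 9 of the 10 members.

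FPKM times length was a whole multiple of 1 step (tolerance 0.01) for 100% of values above 0, which gave the reads per gene. The library size that the authors divided by was 0.645 to 1.21 times the total of these reads. A gene without reads could have had up to 3, and such limits cover counting error only. Levels of log2(FPKM + 1), a scale that understates changes of low genes, were compared by limma 3.58.1 (trend, two-sided, KO minus WT) in R 4.3.3 over the genes that reached an FPKM of 1 in 3 or more libraries, and Benjamini-Hochberg adjusted p-values under 0.05 were called. Ratios were compared by exact permutation, for which 0.1 is the smallest p. The model was tested on simulated data. Every pair of replicates differed by more than sampling noise.

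The members and lists were chosen with earlier results of these data known. All members are named, with Phf6, up to 3 pathway genes per role with the smallest p-values, and 3 look-alikes each of Nfkb1, Nfkbia and Tnfaip3. A pathway gene that this rule names is not reported here. Other genes (Birc2, Traf2, Nfkbib, Chuk, Ikbkb, Bcl10, Bcl2l1, Irf1, Sod2, Icam1, Cflar, Cd83, Bcl2a1d, Tnfaip2) were named after their values were seen. Marker and pathway lists were written from general knowledge. Alternatives were pseudocounts of 0.1 and 0.5, no filter, a filter at a mean FPKM of 5, median-of-ratios scaling, TPM, quantile normalization, removal of a length trend, eBayes without trend, array weights, a replicate block, voom on the recovered reads, and leaving out each library. Tables, exact tests and plots used SciPy 1.17.1, Matplotlib 3.10.9, pandas 2.3.3 and NumPy 2.4.6 under Python 3.11.15.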

Additional observations from a re-analysis of the deposited data

How the results depend on the processing

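Relb and Traf1 were lower past the threshold in all 18 alternatives, Nfkbia and Birc3 in 15, Rel and Rela in 14 and Tnfaip3 in 10, and none of these 7 changed direction in any of them. Relb and Traf1 met the filter through the WT libraries alone, and the alternatives include a fit without the filter. The number of family genes lower was 2 after rescaling to TPM, and between 3 and 7 when 1 library was left out. The number higher was 1 after rescaling to TPM, 1 with array weights and between 0 and 1 when 1 library was left out, the gene being Nfkbie without WT 2. Nfkb1 was at 0.63 after rescaling to TPM. Nfkb2 was at 0.78 after rescaling to TPM, 0.21 after quantile normalization, 0.16 after removal of the length trend and 0.13 with array weights, and between -0.21 and 0.16 when 1 library was left out. The number of other pathway genes lower was 15 after rescaling to TPM and 44 with array weights, and between 14 and 40 when 1 library was left out. The number higher was 1 without the filter and 8 with array weights, and between 1 and 4 when 1 library was left out. The log2 difference of Nfkb2/Nfkb1, 0.13 with all libraries, lay between -0.17 and 0.62 when 1 library was left out, and was 0.58 with the length trend removed. Without WT 2, Rel/Rela, Nfkbia/Rela and Tnfaip3/Nfkbia were at -1.92, -0.82 and -0.80. The difference in the share of Nfkb1 was 7.83 percentage points, 4.32 after removal of the length trend and 5.06 without WT 2. The cause of these changes was not tested. Of all genes, 3539 were called with all libraries, 6967 without WT 2, 8461 with array weights, 1837 at a mean FPKM of at least 5 and 1934 to 2071 without 1 KO library, with 49.6% of the calls higher, or 67.8% after rescaling to TPM.

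Libraries with the same replicate number did not deviate together (correlations of 0.095, 0.105 and -0.153 for numbers 1, 2 and 3), so the numbers were not taken as pairs. With the replicate block 6 of the 7 family genes passed, Rela being the exception (-1.43, limma, adjusted p = 0.0523), 2676 genes were called in all, and 24 pathway genes were lower and 2 higher. Within-library ratios under the replicate block cannot reach an exact p under 0.25.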

Other observations

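Of the pathway list, 13 genes were under the filter and were not tested, namely Cd40, Tnfrsf11a, Tlr4, Il1r1, Tnfsf13b, Cd40lg, Il1a, Tnip3, Bcl2a1a, Bcl2a1b, Ptgs2, Il6 and Cxcl1. Several of them stood out in WT 2. That library had the highest sums of neutrophil, monocyte and macrophage, B cell, dendritic cell, erythroid and T cell genes. Cd40, a receptor of B cells and antigen-presenting cells, stood at 0.266, 4.97 and 0 FPKM in WT replicates 1, 2 and 3, and had no reads in any KO library. Il6 had 2.78, 20.6 and 0.850 in the WT libraries and at most 0.332 in KO. Of the genes tested, Tnfrsf13c, the receptor for BAFF on B cells, had 1.08, 24.0 and 1.76 in WT and at most 0.496 in KO, and Cd83 had 2.72, 43.4 and 1.35 in WT and at most 0.0741 in KO, and neither passed (limma, adjusted p = 0.166 and 0.0973). These genes were chosen after their values were seen.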
